A study of Mus musculus with 2 samples.

Results

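The Myc and Pvt1 locus was described from the list of regions in which DNA precipitated with an antibody against macroH2A1.1 gave more reads than input chromatin. The locus was taken as the 2 Mb window from 61500001 to 63500000 of mouse chromosome 15 (build mm9), which holds Myc at about 61817000 to 61822000 and Pvt1 just distal to it. Of the 50887 regions of the list, 188 overlapped this window, and 3545 lay elsewhere on chromosome 15. The window had been chosen by its covered length in this same list, so its coverage and all values from the ChIP and input reads are descriptive. A stricter filter, an exact binomial test of both read counts run over the whole list, is quoted for regions as part of that description and compares libraries, not conditions. The last region inside the window reached 4 kb past its distal edge, with 205 ChIP reads and 93 input reads. The nearest regions outside had 305 and 139 reads before the window, and 79 and 14 reads after it.

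The study made 1 macroH2A1.1 ChIP library and 1 input library from C2C12 cells, an established mouse myoblast line whose cells fuse into myotubes in low serum. Both libraries are of wild type genotype, and neither carries a transgene or treatment in its labels. The source label of both is myoblast, while their short descriptions contain the letters DM, the abbreviation of differentiation medium in the growth protocol, and the study describes the profiled cells as myotubes after several days of differentiation. The list holds no expression values against which the cell type could be checked. With 1 library a group there is no error between replicates, and the intervals below are 95% exact binomial (Clopper-Pearson) intervals that cover counting error alone. The libraries are averages over many cells, in which more cells with macroH2A1.1 at a site and more macroH2A1.1 per cell cannot be told apart.

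MacroH2A1 is a variant of histone H2A with a large globular macro domain, and in its splice isoform macroH2A1.1 this domain binds ADP-ribose. The variant is known for broad chromatin domains of modest enrichment, the inactive X chromosome among them. Myc encodes a transcription factor of the basic helix-loop-helix class that drives growth and division, and its expression falls when myoblasts leave the cell cycle. Pvt1 is a long non-coding RNA gene beside Myc, known as a site of retroviral insertion and as a neighbour that is often gained together with Myc in tumours.

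The locus was covered densely by macroH2A1.1 regions on both sides of the genes, but Myc itself held none, and neither did an adjacent stretch in which the proximal part of Pvt1 is expected. Regions covered 1228 kb of the window, which was 61.4% of its length. An opening of 11.8 kb lay around Myc, and a stretch of 238.2 kb without a region began 50.0 kb after the Myc start. Without this stretch the regions covered 69.7% of the remaining window. The enrichment within the regions was moderate, with 29447 ChIP reads over 10509 input reads, a raw ratio of 2.80 (2.74 to 2.87).

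No region overlapped the Myc interval. The nearest ended 1.0 kb before it, at 61810401 to 61816000, and had 120 ChIP reads and 60 input reads. This was a raw ratio of 2.00 (1.46 to 2.77), below the first quartile of the locus at 2.36. The caller gave it an FDR of 0.000416, and an exact binomial test that also takes the error of the input count into account gave an adjusted p of 0.0556 over the whole list. The next region upstream, at 61805601 to 61808200, had 60 ChIP reads and 25 input reads, a raw ratio of 2.40 (1.48 to 3.99). On the other side, the first region began 5.8 kb past the Myc end, at 61827801 to 61838600. It was 10.8 kb wide and had 255 ChIP reads over 100 input reads, a raw ratio of 2.55 (2.02 to 3.25). The region after it, at 61839401 to 61846000, had 159 ChIP reads and 66 input reads, a raw ratio of 2.41 (1.80 to 3.26). The intervals of these 4 flanking regions overlapped, and at 25 to 100 input reads each they leave the order of the regions beside Myc unresolved. An opening of this size is common on chromosome 15, where 869 of the 3732 separations were at least as long. Within the locus it belonged to the 8 separations of 10 kb or more, out of 187 with a median of 1400 bp.

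The long stretch without a region extended from 61867001 to 62105200, that is from 50.0 to 288.2 kb after the Myc start. It was 14.9 times as long as the next longest in the locus, which measured 16.0 kb and lay before Myc at 61777001 to 61793000. Separations within the locus had a median of 1400 bp, against 3600 bp on chromosome 15. On the whole chromosome, 50 separations were at least as long as the long stretch, which is 1.34% of them by number. The share of the chromosome's length in such separations was not computed. The region at its proximal edge, at 61861201 to 61867000, had 164 ChIP reads and 36 input reads, a raw ratio of 4.56 (3.16 to 6.73). This was the highest ratio of the 5 regions between Myc and the stretch, the others lying between 2.41 and 2.85. The interval of this region overlapped those of all the others, whose upper limits were 3.25 to 4.60, so their order is unresolved. The region at its distal edge, at 62105201 to 62108000, had 58 ChIP reads and 20 input reads, a raw ratio of 2.90 (1.72 to 5.09). The intervals of both edge regions overlapped.

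The rule gives no end for Pvt1 in mm9, so its extent was taken from the GENCODE annotation of GRCm38 as a distance from Myc, and no coordinate was moved between the builds. In GRCm38 Myc lies on the plus strand of chromosome 15 at 61985391 to 61990374 (ENSMUSG00000022346.15) and Pvt1 on the same strand at 62037986 to 62378096 (ENSMUSG00000097039.8). Pvt1 thus starts 52.6 kb after the Myc start. Of its 10 annotated transcripts, 9 end at most 273.2 kb after it, and Pvt1-202 reaches 392.7 kb. At this spacing the 220.7 kb spanned by the former fell wholly into the stretch without a region, with 2.6 kb to spare at the proximal side and 15.0 kb at the distal side. The further 119.5 kb of Pvt1-202 held 13 regions that covered 60.0% of it, so that 21.1% of the whole annotated span of Pvt1 was covered. This placement takes the spacing of the genes to be equal in both builds, which was not checked. In GRCm38 the Pvt1 span holds the processed pseudogene H2afy3, whose symbol derives from the earlier symbol of the macroH2A1 gene, 232.8 kb after the Myc start. The 220.7 kb have 0 unread bases in GRCm38, 18.8% of them are marked as repeats and their GC content is 45.5%, against 30.0% and 40.5% at the distances of the whole window. The list gives no read counts outside regions, so the level of macroH2A1.1 over Myc and in the long stretch is unknown, and a missing region means no call at this depth, not absence of the histone.

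**Figure D1:**
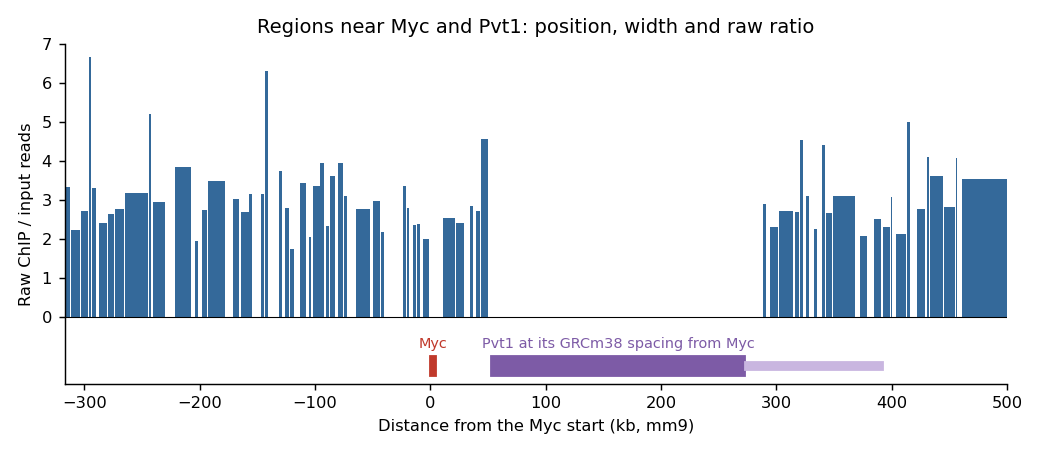
Regions from 317 kb before to 500 kb after the Myc start in mm9. Each bar is a region drawn to its width, with its raw ratio of ChIP to input reads as height. The red box is Myc as the rule places it, the purple box the 9 shorter Pvt1 transcripts and the pale box the rest of Pvt1-202, both drawn at their GRCm38 distance from Myc. No bar stands over Myc or between 50.0 and 288.2 kb.

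The coverage was then followed from Myc outward in bins of 100 kb. Of the 19 full bins in the window, 16 were covered over at least 50% of their length, and 1 had no region. The bin that begins at Myc was covered to 29.2% by 5 regions, with 737 ChIP reads and 259 input reads. The bin from 100 to 200 kb had no region, and that from 200 to 300 kb was covered to 8.6% by 2 regions with 190 and 77 reads. These 3 bins contain the long stretch and were the least covered ones of the window.

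Upstream of Myc the coverage was higher. The bin ending at the Myc start was covered to 56.4% by 14 regions, with 1278 ChIP reads over 450 input reads. The bin from 200 to 100 kb before Myc was also covered to 56.4%, by 12 regions with 1340 and 431 reads, and that from 300 to 200 kb before it to 78.2%, by 11 regions with 1905 and 623 reads. The remaining 17 kb at the proximal edge were covered to 87.1%. The 39 regions before Myc together had a raw ratio of 2.97 (2.81 to 3.15).

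Downstream of the long stretch the coverage was high in every full bin from 300 kb on. In the 13 full bins from 300 kb on, coverage stayed between 59.6% and 80.8%, with a median of 71.0%, and each bin held 8 to 12 regions. The most covered bin was that from 400 to 500 kb, with 2245 ChIP reads over 692 input reads. The least covered of the 13 was that from 1100 to 1200 kb, with 1375 and 538 reads. In all, 144 regions downstream of the stretch held 23888 ChIP reads and 8628 input reads, a raw ratio of 2.77 (2.70 to 2.84). Coverage was 71.2% there and 64.0% in the part of the window before the stretch.

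**Figure D2:**
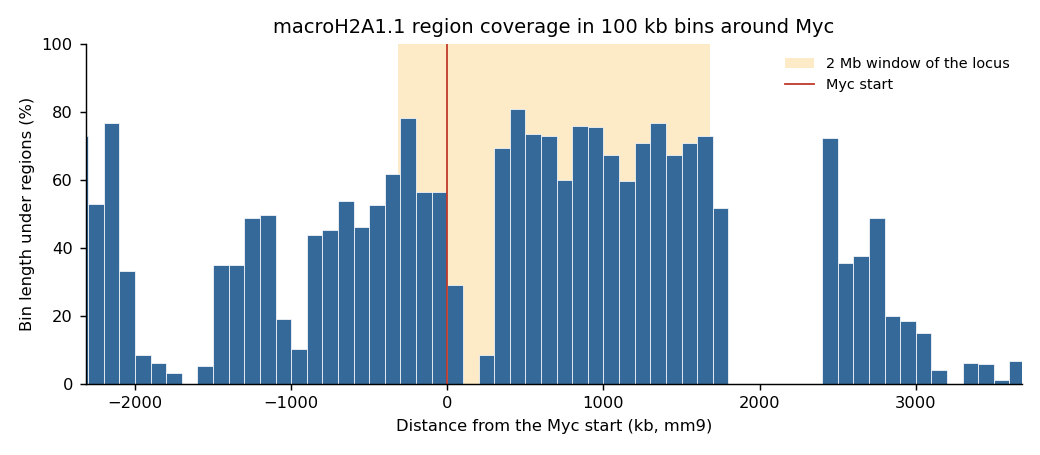
Share of each 100 kb bin (in %) that lies under macroH2A1.1 regions, by distance from the Myc start (kb, mm9), in the window of the locus (shaded) and 2 Mb on each side. The bins from 0 to 300 kb hold 29.2%, 0% and 8.6%, the full bins after them in the window 59.6 to 80.8%. Past the window, the bin from 1700 to 1800 kb holds 51.6%, those from 1800 to 2400 kb have no region, and the coverage falls again after 72.2% from 2400 to 2500 kb.

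The raw ratio of the bins is given with counting intervals and no test. Among the 13 bins it was highest from 400 to 500 kb, at 3.24 (2.98 to 3.54), followed by 3.15 (2.86 to 3.48) from 1000 to 1100 kb. It was lowest from 1400 to 1500 kb, at 2.26 (2.06 to 2.47), followed by 2.46 (2.24 to 2.69) from 1200 to 1300 kb. These bins were picked as the extremes of the 13, and their sums run over regions called one by one in 1 pair of libraries. The bin with the lowest ratio also had the highest input density of the 13, at 9.99 reads per kb of region, where the lowest was 8.13. Its ChIP density was 22.5 reads per kb, near the low end of the range of 22.1 to 27.6 over these bins. The bin with the highest ratio had the highest ChIP density, 27.6, and an input density of 8.52. The parts of the ChIP and the input density in the ratio were not tested.

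**Figure D3:**
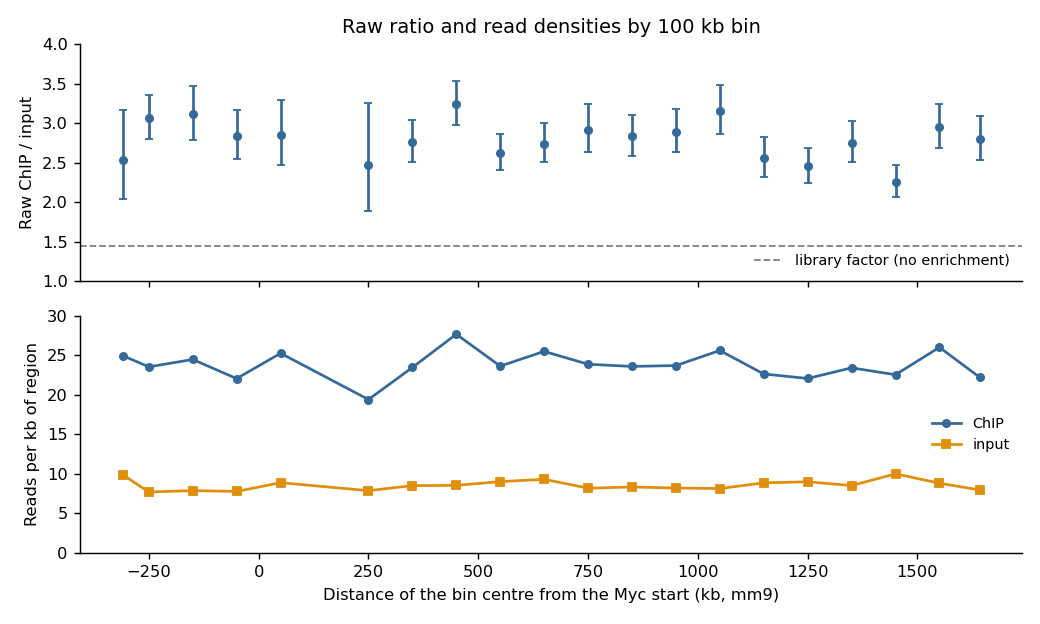
Upper panel, raw ratio of ChIP to input reads summed over the regions of each 100 kb bin, with 95% exact intervals for counting error, by distance of the bin centre from the Myc start (kb, mm9). Lower panel, ChIP and input reads per kb of region in the same bins. All ratios lie above the library factor of 1.45, and the ratio from 1400 to 1500 kb is the lowest.

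The single regions of the locus ranged in width from 800 bp to 39.8 kb, with a median of 4800 bp and quartiles at 3150 and 8600 bp. On the rest of chromosome 15 the median was 4000 bp and on the other chromosomes 3400 bp. ChIP reads per region ranged from 35 to 1183 with a median of 112.5, and input reads from 6 to 333 with a median of 44.5. The raw ratio of a region had a median of 2.79, with quartiles at 2.36 and 3.31 and a range from 1.71 to 6.67. The median was 2.78 on the rest of chromosome 15 and 3.25 on the other chromosomes. The locus thus had a larger median width than the rest of its chromosome and nearly the same median ratio.

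The widest region lay 461.0 to 500.8 kb after the Myc start, at 62278001 to 62317800, and was also the one with most reads. It had 1183 ChIP reads over 333 input reads, a raw ratio of 3.55 (3.14 to 4.02). The next, at 62421801 to 62448000, was 26.2 kb wide with 641 and 236 reads, a ratio of 2.72 (2.34 to 3.17). Its interval overlapped that of the widest region by a narrow margin. At 63352201 to 63378000 a region of 25.8 kb had 602 and 235 reads, a ratio of 2.56 (2.20 to 2.99), and its whole interval lay below that of the widest region. At 62718401 to 62740600 a region of 22.2 kb had 605 and 189 reads, a ratio of 3.20 (2.71 to 3.79). These 4 were the regions over 20 kb in the locus, out of 57 on chromosome 15 and 407 in the list, and made up 9.25% of the region length of the locus. The fifth, upstream of Myc at 61552601 to 61572200, measured 19.6 kb and had 451 and 142 reads, a ratio of 3.18 (2.62 to 3.86).

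The 3 highest raw ratios belonged to regions narrower than the median. The highest was at 61521001 to 61522400, near the proximal edge of the window, from 40 ChIP reads and 6 input reads, a ratio of 6.67 (2.81 to 19.2). It was followed by 6.32 (3.87 to 10.9) at 61673601 to 61676400, from 120 and 19 reads, and by 5.83 (3.91 to 8.97) at 62911001 to 62915000, from 169 and 29 reads. The intervals of the 3 overlapped, so their order is not resolved at this depth. The lowest ratios were 1.71 (1.24 to 2.38) at 62994201 to 62999400, from 106 and 62 reads, 1.74 (1.22 to 2.48) at 63236201 to 63240400, from 92 and 53 reads, and 1.76 (1.36 to 2.27) at 62355401 to 62363600, from 172 and 98 reads. The next lowest, at 61695201 to 61699000 before Myc, was also 1.76 (1.20 to 2.59), from 79 and 45 reads, and was named after its value was seen. Each of these intervals included the library factor of 1.45, the ratio at which ChIP and input are even. Input density was 11.9 to 12.6 reads per kb in the first 3 of these regions and 4.29 to 7.25 in the 3 with the highest ratios. ChIP density differed as well, at 20.4 to 21.9 and 28.6 to 42.9 reads per kb. Both sets were picked by the ratio of these counts.

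When the 188 regions were split by width into 4 groups of 47, the median raw ratio was 3.00 in the narrowest group, with a median width of 2200 bp, 2.69 and 2.58 in the middle groups, and 2.82 in the widest, with a median width of 12.2 kb. Across the 188 regions, Spearman's rho of width and raw ratio was -0.0946, and that of input reads per kb and raw ratio was -0.772. On the rest of chromosome 15 these were -0.224 and -0.789 across 3545 regions. Regions share their libraries and had all passed the caller, and input reads are the denominator of the ratio, so these values are descriptions.

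**Figure D4:**
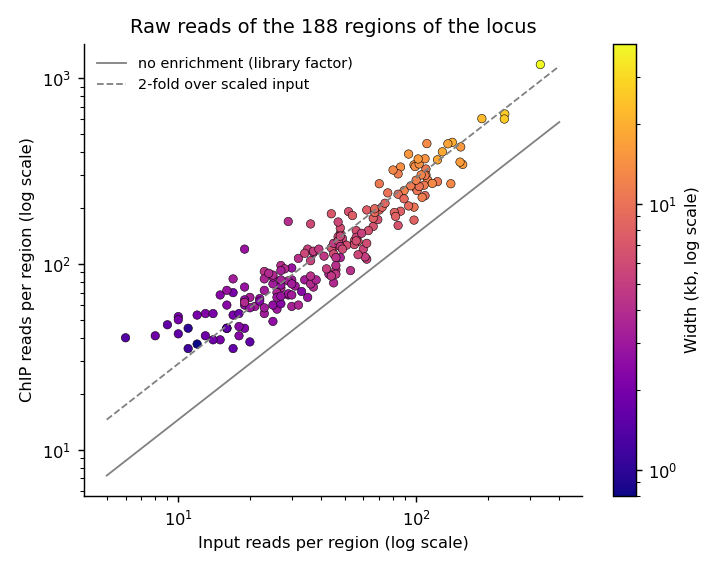
ChIP reads against input reads of each of the 188 regions of the locus on log scales, coloured by width in kb on a log scale. The solid line marks the library factor of 1.45, at which ChIP equals scaled input, and the dashed line 2-fold over scaled input. All regions lie above the solid line, and the widest region lies at the upper right with 1183 and 333 reads.

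After scaling by the library factor, 77 of the 188 regions (41.0%) reached 2-fold over input. The share was 44.2% on the rest of chromosome 15 and 61.3% over all regions of the list. In the exact binomial test 157 regions (83.5%) had an adjusted p of 0.05 or less, against 78.0% on the rest of chromosome 15 and 84.1% over all regions. Pooled, the 31 regions that missed this limit gave a raw ratio of 1.99 (1.85 to 2.13), with 10.5 input reads per kb. They were picked by a test on these same ChIP and input counts. A low ratio among them follows from that choice, and input reads are its denominator, so neither value is a separate result. Both shares are read from the contrast by which the locus was chosen, and nothing further is drawn from them.

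Among the 50 full windows of 2 Mb on chromosome 15, the locus was the most covered. The other 49 had a median coverage of 18.3%, with quartiles at 9.04% and 29.0%, and 5 of them had no region. The next most covered window, from 55.5 to 57.5 Mb, reached 50.5%. The locus also had the most regions, 188 against a highest value of 181 elsewhere, and by median width it ranked 3 of the 45 windows with a region. It made up 1.93% of the chromosome up to the last region and 6.04% of its covered length. Over all chromosomes, it ranked first by coverage among 1289 windows, closely followed by the window from 89500001 to 91500000 of chromosome 8 with 60.4%. All windows were laid in step with that of the locus, which had been chosen by its coverage, and this can favour its rank. With windows at round positions, the 2 Mb window that holds Myc was covered to 36.5% and ranked 8 on chromosome 15. The window after it, without Myc, was covered to 52.7% and ranked 1.

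The enrichment of the locus lay within the range of the other windows. Its pooled raw ratio, 2.80, ranked 14 of the 45 windows of chromosome 15, the others having a median of 2.73 with quartiles at 2.50 and 2.84 and a highest value of 3.34. The median ratio per region ranked 22 of 45. Over all chromosomes the pooled ratio ranked 942 of 1155 windows with a region. Input reads per kb of region were 8.53 in the locus, which ranked 12 of 45, where the others had a median of 8.17 and a range from 6.64 to 10.8. ChIP reads per kb were 23.9, against a median of 22.2. The median input density of windows over all chromosomes was 6.52, below that of the locus. In windows above this density, the counts of regions were scaled down by the factor of their window, and a Poisson test was repeated. Regions that still passed covered 60.5% of the locus, and it still ranked 1 on chromosome 15. This step could only remove regions. At an enrichment of 3-fold or more over scaled input, regions covered 1.59% of the locus, and it ranked 14 among the windows of chromosome 15.

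**Figure D5:**
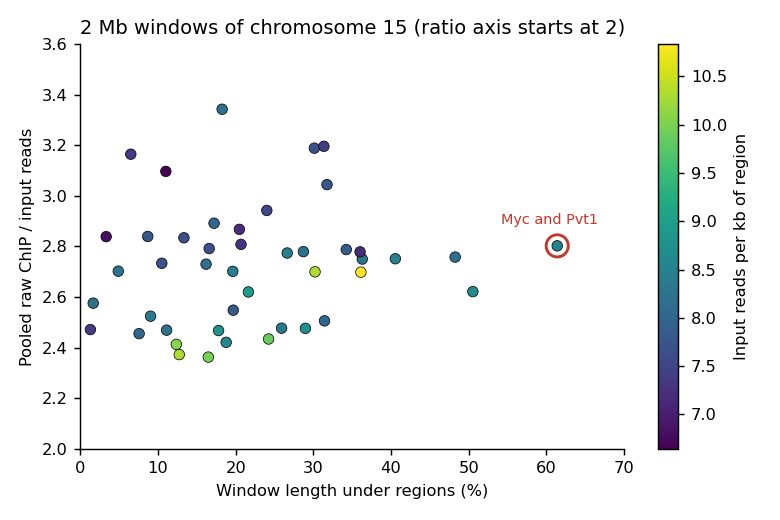
The 45 full 2 Mb windows of chromosome 15 that hold a region, by the share of their length under regions (in %) and the pooled raw ratio of ChIP to input reads, coloured by input reads per kb of region. The window of Myc and Pvt1 (circled) lies farthest to the right, at 61.4%, and near the middle of the ratios, at 2.80.

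Coverage was lower in the 2 Mb windows on both sides, at 34.2% before and 16.6% after, against 61.4% in the locus. Bins near the proximal edge were covered to 52.6% from 500 to 400 kb before Myc and 61.8% from 400 to 300 kb, a bin that straddles this edge. These were similar to the 56.4% of each of the 2 bins just before Myc, while that from 300 to 200 kb before Myc held 78.2%. The most covered bin before the window, from 2200 to 2100 kb before Myc, held 76.8%. In the 2 Mb before it, bins of 100 kb had a median coverage of 39.4%, and 5 of 20 were covered to at least 50%. The 20 bins that lay wholly after the window, from 1700 kb on, had a median of 6.0%, and 2 were covered to at least 50%. The outermost of them is only 83 kb long. Here regions extended to 1788.8 kb from the Myc start and then stopped for 615.8 kb, from 63605801 to 64221600. In GRCm38 the next protein-coding gene on this side is Gsdmc, a member of the gasdermin family of pore-forming proteins, 1790.6 kb after the Myc start, and none is annotated between Myc and it. Gsdmc, Gsdmc2, Gsdmc3, Gsdmc4, Fam49b and Asap1, a regulator of the small GTPase Arf, follow up to 2397.5 kb, and at their GRCm38 spacing all 6 fell into this stretch without a region, which ended at 2404.6 kb. Of the 16 protein-coding genes of GRCm38 within 3 Mb of Myc, Myc included, 11 held no region at their GRCm38 spacing, Sqle, which encodes squalene epoxidase, and the pseudokinase gene Trib1 among them. The other 5 did, among them Fam84b with 64.4% of its length covered by 4 regions, A1bg with 26.0% and Adcy8, an adenylyl cyclase gene, with 33.9% by 20 regions. The matching share over all genes of chromosome 15 was not computed, so 11 of 16 has no background here, and regions covered 19.7% of the chromosome. Genes far from Myc are placed with less certainty, since differences between the builds add up with distance.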

How the data were processed

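C2C12 DNA from 1 macroH2A1.1 ChIP and 1 input library was sequenced as single reads. The authors aligned reads to mm9 with Bowtie2 2.0.6, per the labels, and the methods name SICER for the regions. The deposited list, named after epic, holds ChIP and input read counts per region (not scaled), a p-value and FDR by the authors' caller, and a log2 fold change by the authors. The last was used to find the library factor of 1.45, the same in all regions. The deposited FDR places every p-value at its rank among 56506 candidates, so no region that passed the FDR limit of 0.05 is missing here. Candidates that did not pass are not in the list, and their positions are unknown. Edges fall on steps of 200 bp and separations on chromosome 15 are 800 bp or more, which differs from the window and gap that the methods state. Coordinates, which the file counts from 0, are printed 1-based.

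Coverage was clipped to windows and bins, and reads went with a region's midpoint for bins. Full windows end before the last region of a chromosome. Raw ratios are ChIP over input counts with 95% Clopper-Pearson intervals. A two-sided exact binomial test against the library factor, adjusted by Benjamini-Hochberg over 50887 regions, was checked on simulated data (Python 3.11.15, scipy 1.17.1). The simulated regions had not been selected by a caller, unlike those of the list, so the check does not cover that selection. The intervals and the test compare libraries, not conditions. The list holds no library totals, and reads amplified by PCR without molecular identifiers are not independent molecules. Named were the regions beside Myc, the 5 widest, the 3 highest and 3 lowest ratios above 3 input reads, and that with most ChIP reads. The regions beside the long stretch and at the window edges were added after their values were seen. Alternatives were stricter thresholds, joining, other windows and bins, and scaling. GRCm38 was used for gene spacing and base composition alone. The locus, lists and settings were chosen with earlier results of these data known.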

Additional observations from a re-analysis of the deposited data

How the results depend on the processing

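Coverage fell to 59.7% under an FDR limit of 0.01, to 26.0% (77 regions) at 2-fold or more and to 55.7% in the exact binomial test. It was 83.7% (9 joined regions) with joining within 10 kb, 52.7% and 63.8% in the most covered windows of 2 Mb and 1 Mb at round positions, and, in settings added after seeing the data, 69.7% without the long stretch and 1.59% at 3-fold or more. Equal input density was also added then. Filters removed regions and joining filled separations by construction. The window of the locus ranked 1 on chromosome 15 under each threshold, with joining and at equal input density (60.5%), but 14 at 3-fold or more. With windows at round positions, those that ranked 1 start at 62 Mb and do not hold Myc, while the window that holds it covered 36.5% and ranked 8 at 2 Mb, and covered 49.1% and ranked 4 at 1 Mb. The median raw ratio was 3.40 at 2-fold or more, 2.87 in the binomial test and 1.92 divided by the library factor; the pooled ratio was 3.49 at 2-fold or more and 2.91 in the binomial test. Input reads per kb were 7.30 at 2-fold or more and 8.33 in the binomial test. The joined value, 6.23, is not comparable, since filled separations add length while the list gives no reads for them. The median joined width was 207800 bp. Accepting 5 kb put 1 region at Myc, with a ratio of 1.38 after scaling. The stretch around Myc grew from 11.8 to 19.6 kb in the binomial test and to 65.6 kb at 2-fold or more, while the long stretch kept 238.2 kb in both. At 3-fold or more, 12 regions were left, the stretch around Myc was 184.8 kb, and the longest was another one of 354.6 kb, from 62915001 to 63269600. No paired analysis was possible because there is 1 library of each kind, and none could be left out. Depth limits single regions: 6 to 333 input reads each.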
